A study of Mus musculus with 12 samples.

Results

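The E2F set described here holds 10 genes of 3T3-L1 cells, the E2F transcription factors E2f1 to E2f8 and their dimerisation partners Tfdp1 and Tfdp2 (DP1 and DP2). They were chosen by symbol from a table of 55487 genes, and the rule uses no expression value, though the set was proposed with earlier results of these data known. All 10 genes passed the filter on low values and were among the 15968 genes tested.

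E2F proteins bind the promoters of genes for DNA replication and cell division. In resting cells the retinoblastoma family of pocket proteins (Rb1, Rbl1 and Rbl2) holds E2Fs in a repressing state, and phosphorylation of the pocket proteins by cyclin-CDK complexes releases them as cells pass from G1 into S phase. By convention E2f1, E2f2 and E2f3 are called activators. E2f4 and E2f5 act mainly with Rbl1 and Rbl2 as repressors, E2f6 represses through polycomb complexes without pocket proteins, and the atypical E2f7 and E2f8 bind DNA without a DP partner and repress G1/S genes late in the cycle. Growth-arrested 3T3-L1 preadipocytes re-enter the cell cycle after hormonal induction, in mitotic clonal expansion (MCE), before they turn into adipocytes.

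RNA-seq libraries of 3T3-L1, a mouse fibroblast line, were compared between cells with a control hairpin (shScram) and cells with a hairpin against Fto, an m6A RNA demethylase (shFTO). Both lines were made with lentiviral hairpins and puromycin selection. The stages sampled were preadipocytes (Pre), MCE after induction with MDI medium (IBMX, dexamethasone and insulin) and the differentiation stage (Diff), which gave 6 groups of 2 libraries. Diff stands for the stage of mature adipocytes, although summed adipocyte markers were lower in shFTO_Diff than in shScram_Diff, as given below. The labels do not say that the 2 libraries of a group came from separate cultures, so the p-values measure the spread between these libraries, which may be technical. Replicate 1 of shScram_Diff carries the treatment entry Fto knockdown, and its title was followed. Fto was between 52.7 and 73.5 TPM in the 6 shScram libraries, that one included, and between 5.51 and 7.47 TPM in the 6 shFTO libraries. The sources used here do not say which of the Fto hairpins was sequenced.

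Values are TPM, in which reads are corrected for gene length and each library is set to the same total. Sequencing depth cannot be read from them and is unknown, and precision is limited by having 2 libraries in a group. Differences on the log2(TPM + 1) scale were tested with limma and Benjamini-Hochberg adjustment over all 15968 genes, and a gene was called at an adjusted p under 0.05. That scale understates changes of genes with low TPM, such as E2f2. One library stood apart. Across genes, which are not independent replicates, replicate 1 of shScram_Pre correlated with replicate 2 at 0.939, while the other pairs of replicates reached 0.990 to 0.993. Its mitochondrial share of TPM was 14.5% against 4.58% to 9.16% in the other libraries, and its difference from replicate 2 fell with the GC content of transcripts (Spearman rho -0.69). E2f1 (58.3% GC, 91.4th percentile of tested genes), E2f2 (56.6%) and E2f4 (56.1%) are the most GC-rich of the set. Results are therefore also given without that library. In bulk RNA, fewer cells of a type and less RNA per cell cannot be told apart.

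The shScram_Diff libraries held 1360 and 1371 TPM of 6 summed adipocyte markers, against 411 and 447 TPM in shFTO_Diff. The summed proliferation markers Mki67, Top2a and Ccnb1 were at 541 and 584 TPM in shScram_MCE and at 415 and 433 TPM in shFTO_MCE. At the differentiation stage they were at 106 and 109 TPM in shScram and at 172 and 184 TPM in shFTO. Of 7 markers of other cell types, the macrophage marker Adgre1 was at 0 in all 12 libraries, the epithelial Epcam in 11, the leukocyte marker Ptprc in 9, the endothelial Cdh5 in 5 and the epithelial Krt8 in 4. Cd68, which is enriched in macrophages, was at 0.457 to 3.04 TPM and the endothelial Pecam1 at 0.0845 to 0.495 TPM in all 12, and the other 5 did not exceed 1.002 TPM. The sum of the 7 was 1.72 and 2.85 TPM in shScram_Pre, against 4.26 and 3.16 TPM in shFTO_Pre. It was 0.995 and 0.542 TPM in shScram_MCE, against 1.10 and 1.01 TPM in shFTO_MCE, and 2.79 and 2.96 TPM in shScram_Diff, against 2.66 and 1.79 TPM in shFTO_Diff. At differentiation the summed proliferation markers were higher in shFTO, as were the called members E2f7 and E2f8. In preadipocytes and at MCE the sums were lower in shFTO, whereas the called members were mostly higher. The MCE sums do not speak for each marker. Top2a and Ccnb1 were lower in shFTO at that stage, but Mki67 overlapped between the lines. Mki67 ranged from 37.9 to 45.5 TPM for shScram_MCE and from 42.1 to 47.5 TPM for shFTO_MCE. The part of the marker levels in the E2F results below was not tested.

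The members spanned a wide range of levels. Over the 12 libraries the mean TPM was 126 for Tfdp1, 81.7 for E2f4, 33.8 for E2f1, 16.1 for E2f5, 14.03 for E2f3, 12.2 for Tfdp2, 8.75 for E2f6, 8.54 for E2f8, 3.68 for E2f7 and 1.6 for E2f2. Tfdp1 was above E2f4, E2f4 above E2f1, and E2f7 above E2f2 in 12 of 12 libraries. The order of E2f5 and E2f3 and that of E2f6 and E2f8 each held in 7 of 12 libraries, and it differed between groups. E2f6 held 5.35 and 5.45 TPM in shScram_Diff, above E2f8 (2.43 and 2.05 TPM). In shFTO_Diff E2f6 held 6.91 and 7.26 TPM, below E2f8 (9.51 and 8.32 TPM). E2f5 held 20.2 and 17.7 TPM in shScram_MCE, above E2f3 (11.9 and 9.91 TPM). In shFTO_MCE E2f5 held 9.51 and 11.3 TPM, below E2f3 (15.8 and 14.8 TPM). E2f4 made up 36.8% to 56.7% of the summed E2F TPM in every library, and E2f1 was the highest activator in 11 of 12 libraries.

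**Figure D1:**
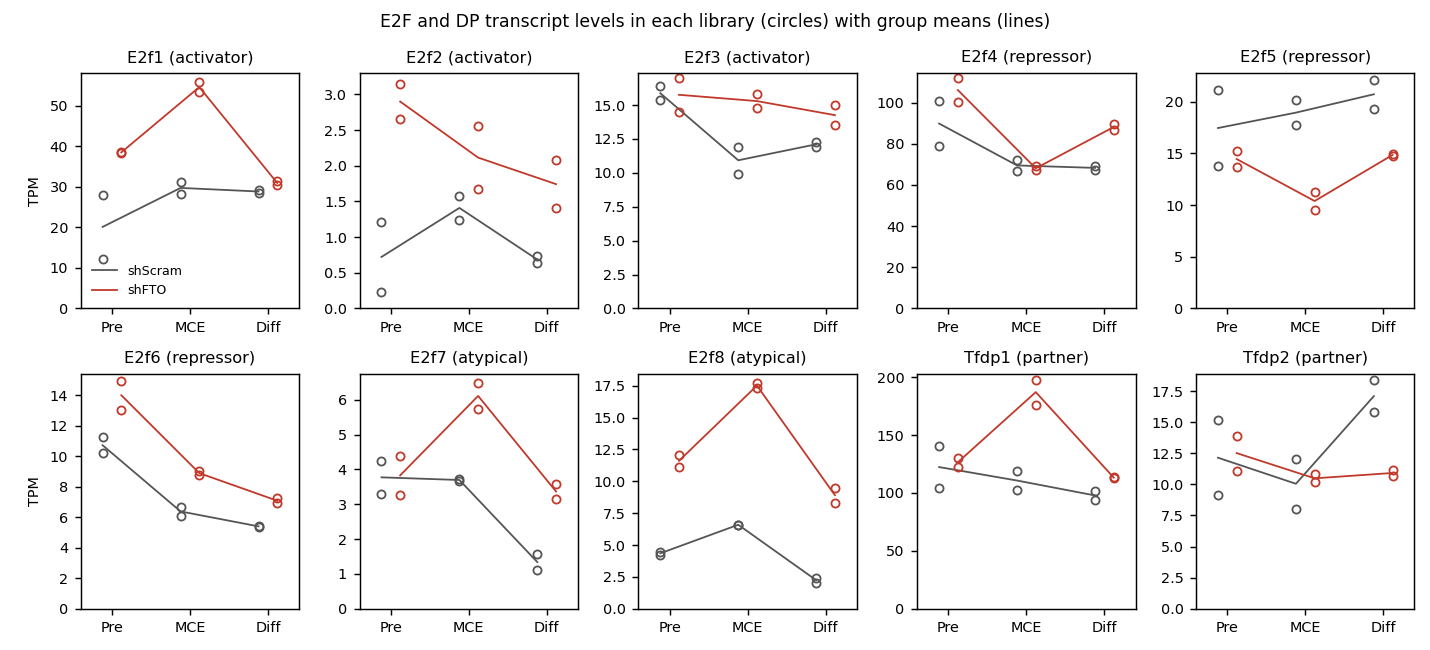
TPM (vertical axis, a separate scale in each panel) of the 10 genes at the stages Pre, MCE and Diff in shScram (grey) and shFTO (red), with a circle for each of 2 libraries per group and lines through the group means. In shFTO the E2f1, E2f7, E2f8 and Tfdp1 means were highest at MCE, while E2f5 was lowest there.

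E2f1 is the activator best known for driving S-phase entry (ENSMUSG00000027490, GRCm38 chromosome 2, 154559407 to 154569892, minus strand). Its libraries held 12.2 and 28.1 TPM in shScram_Pre, against 38.6 and 38.4 TPM in shFTO_Pre. At the MCE stage they held 28.2 and 31.3 TPM in shScram, against 53.4 and 55.8 TPM in shFTO, so that both shFTO libraries stood above all other libraries. At the differentiation stage they held 28.4 and 29.3 TPM in shScram, against 30.4 and 31.5 TPM in shFTO, close together but without overlap. In preadipocytes E2f1 was higher in shFTO by 1.01 ± 0.29 (log2, SE; limma adjusted p = 0.0337). Without replicate 1 of shScram_Pre this difference was 0.44 (adjusted p = 0.00687), and after correction for GC content it was 0.25 (adjusted p = 0.0615). The call was also lost on leaving out any single library outside shScram_Pre, with adjusted p from 0.0542 to 0.14, with library weights (0.0888), with the compared libraries only (0.314) and with no filter on low values (0.0838). At MCE the 1.84-fold difference in mean TPM did not pass the test with all 12 libraries (0.86 ± 0.29, adjusted p = 0.0782). The shScram_Pre pair widened the error of E2f1 at every stage. Without replicate 1 of shScram_Pre the same difference had an adjusted p of 1.64e-05, and without replicate 2 of 1.8e-05. At differentiation the difference was 0.10 ± 0.29 (adjusted p = 0.856).

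E2f2, a low-abundance activator (ENSMUSG00000018983, chromosome 4, 136172394 to 136196057), held 0.232 and 1.21 TPM in shScram_Pre, against 3.15 and 2.65 TPM in shFTO_Pre. At MCE it held 1.58 and 1.24 TPM in shScram, against 2.55 and 1.68 TPM in shFTO. At differentiation it held 0.739 and 0.631 TPM in shScram, against 2.08 and 1.41 TPM in shFTO. The shFTO libraries lay above the shScram libraries at each stage. Only the preadipocyte difference passed the test, at 1.24 ± 0.28 (log2; limma adjusted p = 0.0152), and it was 0.82 (adjusted p = 0.0356) without replicate 1 of shScram_Pre. That call was lost without either shFTO_Pre library (adjusted p = 0.0957 and 0.0582), with library weights (0.299) and with the compared libraries only (0.245). The values at MCE (0.36 ± 0.28, adjusted p = 0.455) and at differentiation (0.69 ± 0.28, adjusted p = 0.12) did not pass, and the latter had an adjusted p of 0.0198 without replicate 1 and 0.0203 without replicate 2 of shScram_Pre.

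E2f3, the third activator (ENSMUSG00000016477, chromosome 13, 29906575 to 29986063, minus strand), was the steadiest of the activators. It held 16.4 and 15.4 TPM in shScram_Pre, 14.5 and 17.0 TPM in shFTO_Pre, 11.9 and 9.91 TPM in shScram_MCE, against 15.8 and 14.8 TPM in shFTO_MCE. At differentiation it held 11.9 and 12.3 TPM in shScram, against 13.5 and 15.0 TPM in shFTO. The lines overlapped in preadipocytes and did not overlap at the later stages. None of the 3 differences passed the test (MCE 0.45 ± 0.14, limma adjusted p = 0.0572). The MCE difference had an adjusted p of 0.0127 without replicate 1 and 0.0124 without replicate 2 of shScram_Pre.

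E2f4, the major repressor of resting cells (ENSMUSG00000014859, chromosome 8, 105297663 to 105305370), held 78.8 and 100.8 TPM in shScram_Pre, against 112 and 100.2 TPM in shFTO_Pre. At MCE it held 66.8 and 72.2 TPM in shScram, against 69.1 and 67.1 TPM in shFTO, and at differentiation 67.2 and 69.4 TPM in shScram, against 89.5 and 86.9 TPM in shFTO. The lines overlapped except at differentiation, where both shFTO libraries were higher. With all 12 libraries no E2f4 difference between the lines was called (Pre 0.25 ± 0.13, MCE -0.03 ± 0.13, Diff 0.36 ± 0.13; limma adjusted p = 0.183, 0.928 and 0.0912). The preadipocyte value changed sign with GC correction, to -0.33 (adjusted p = 0.102). It was 0.07 (adjusted p = 0.603) on leaving out replicate 1 of shScram_Pre and 0.42 (adjusted p = 0.00215) on leaving out replicate 2, so that one of these libraries decides the call. The differentiation value had an adjusted p of 0.00264 without replicate 1 and 0.00266 without replicate 2 of shScram_Pre.

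E2f5, the other pocket-protein-bound repressor (ENSMUSG00000027552, chromosome 3, 14578641 to 14606309), was lower in shFTO at the later stages. At MCE it held 20.2 and 17.7 TPM in shScram, against 9.51 and 11.3 TPM in shFTO, its lowest values in the series. At differentiation it held 19.3 and 22.1 TPM in shScram, against 14.7 and 15.0 TPM in shFTO, again without overlap, whereas in preadipocytes 21.2 and 13.8 TPM in shScram overlapped 13.7 and 15.3 TPM in shFTO. E2f5 fell in shFTO at MCE by 0.81 ± 0.20 (log2; limma adjusted p = 0.0223). The call was lost on leaving out any 1 of the 4 MCE libraries (adjusted p = 0.0707 to 0.158), and the value stayed between -0.92 and -0.70 under every alternative. At differentiation it was -0.45 ± 0.20 (adjusted p = 0.146; 0.0118 without replicate 1 and 0.0112 without replicate 2 of shScram_Pre). In preadipocytes it was -0.23 ± 0.20 (adjusted p = 0.389), and it was 0.07 (adjusted p = 0.777) without replicate 1 and -0.52 (adjusted p = 0.00995) without replicate 2 of shScram_Pre. E2f5 overlaps 1810022K09Rik on the opposite strand by 26 bases, and that gene had a mean of 99.7 TPM. Whether strand was used in counting is not stated in the sources used here, so reads in the overlap are uncertain.

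E2f6, the repressor that acts through polycomb complexes (ENSMUSG00000057469, chromosome 12, 16810963 to 16839742), held 11.2 and 10.2 TPM in shScram_Pre, against 13.1 and 14.9 TPM in shFTO_Pre. It then held 6.69 and 6.08 TPM against 9.02 and 8.77 TPM at MCE, and 5.35 and 5.45 TPM against 6.91 and 7.26 TPM at differentiation. Both shFTO libraries were above both shScram libraries at each stage. The differences were 0.35 ± 0.13, 0.42 ± 0.13 and 0.34 ± 0.13, none of them called (limma adjusted p = 0.074, 0.0597 and 0.112). Without replicate 1 of shScram_Pre the MCE and differentiation values had adjusted p of 0.0159 and 0.0404, and without replicate 2 of 0.0152 and 0.0388.

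E2f8, an atypical repressor that is itself expressed in S phase, gave the largest difference between the lines on the log2 scale (ENSMUSG00000046179, chromosome 7, 48866429 to 48881596, minus strand). It held 4.45 and 4.25 TPM in shScram_Pre, against 12.1 and 11.1 TPM in shFTO_Pre. At MCE it held 6.61 and 6.58 TPM in shScram, against 17.7 and 17.4 TPM in shFTO, and at differentiation 2.43 and 2.05 TPM in shScram, against 9.51 and 8.32 TPM in shFTO. All 6 shFTO libraries lay above all 6 shScram libraries. E2f8 was higher in shFTO by 1.24 ± 0.14 in preadipocytes, by 1.29 ± 0.14 at MCE and by 1.61 ± 0.14 at differentiation (log2; limma adjusted p = 0.000668, 0.000348 and 7.54e-05). In mean TPM these were differences of 2.67-fold, 2.66-fold and 3.98-fold. The MCE and differentiation calls held under 22 of 22 alternatives and the preadipocyte call under 20 of 22, the exceptions being a fit to the compared libraries alone (adjusted p = 0.193) and library weights (adjusted p = 0.0836). The antisense gene Gm2788 overlaps E2f8 but had a mean of only 0.598 TPM.

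E2f7, the close relative that forms dimers with E2f8 (ENSMUSG00000020185, chromosome 10, 110745439 to 110787384), differed between the lines at the later stages. It held 3.29 and 4.25 TPM in shScram_Pre, against 3.27 and 4.38 TPM in shFTO_Pre, which overlapped. At MCE it held 3.73 and 3.66 TPM in shScram, against 6.48 and 5.73 TPM in shFTO, and at differentiation 1.58 and 1.10 TPM in shScram, against 3.14 and 3.59 TPM in shFTO, with no overlap at either stage. The difference passed the test at differentiation (0.91 ± 0.19, limma adjusted p = 0.00921). That call was lost without replicate 2 of shScram_Diff (adjusted p = 0.0767) or replicate 2 of shFTO_Diff (adjusted p = 0.0732). The MCE difference was 0.60 ± 0.19 (adjusted p = 0.0599; 0.0197 without replicate 1 and 0.0196 without replicate 2 of shScram_Pre). The ratio of E2f8 to E2f7 was between 1.00 and 1.87 in the shScram libraries and between 2.32 and 3.70 in the shFTO libraries.

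Tfdp1, the main DP partner of the typical E2Fs (ENSMUSG00000038482, chromosome 8, 13338751 to 13378448), held 140.7 and 104.1 TPM in shScram_Pre, against 130.4 and 122.7 TPM in shFTO_Pre. At MCE it held 118.6 and 102.9 TPM in shScram, against 176.3 and 198 TPM in shFTO, the highest values of the set. At differentiation it held 101.5 and 94.2 TPM in shScram, against 113.1 and 113.4 TPM in shFTO. The lines overlapped only in preadipocytes. Tfdp1 was higher in shFTO at MCE by 0.75 ± 0.16 (log2; limma adjusted p = 0.0103), a call lost without replicate 2 of shScram_MCE (adjusted p = 0.0875) or replicate 2 of shFTO_MCE (adjusted p = 0.0954). The other stages gave 0.06 ± 0.16 and 0.21 ± 0.16 (adjusted p = 0.773 and 0.389).

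Tfdp2, the second partner (ENSMUSG00000032411, chromosome 9, 96196275 to 96323646), held 15.2 and 9.12 TPM in shScram_Pre, 13.9 and 11.1 TPM in shFTO_Pre, 12.1 and 8.02 TPM in shScram_MCE, against 10.8 and 10.2 TPM in shFTO_MCE, all overlapping. At differentiation it held 18.4 and 15.8 TPM in shScram, against 10.7 and 11.2 TPM in shFTO. That difference was -0.60 ± 0.25 (log2; limma adjusted p = 0.128; 0.018 without replicate 1 and 0.0175 without replicate 2 of shScram_Pre). The ratio of Tfdp1 to Tfdp2 was 16.3 and 19.5 in shFTO_MCE, and 5.52 and 5.97 in shScram_Diff, the extremes of the 12 libraries.

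Across the set, the Fto knockdown comparison in preadipocytes called 3 of 10 members higher (E2f1, E2f2 and E2f8) and 0 lower, beside 15.9% and 12.3% of all tested genes. At MCE 2 members were higher (E2f8 and Tfdp1) and 1 lower (E2f5), beside 10.5% and 7.26% of all genes. At differentiation 2 were higher (E2f7 and E2f8) and 0 lower, beside 11.9% and 9.31%. With so few members, shares near the background are no result about the set. On leaving out replicate 1 of shScram_Pre, 3, 7 and 7 members were called at the successive stages, beside 29.0%, 41.0% and 45.7% of all genes, where all libraries gave 28.2%, 17.8% and 21.2%. Leaving out replicate 2 instead gave 5, 7 and 7 members, beside 62.8%, 41.0% and 45.6% of all genes. The calls of members without one of these libraries, given with the genes above, stand against these larger shares.

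**Figure D2:**
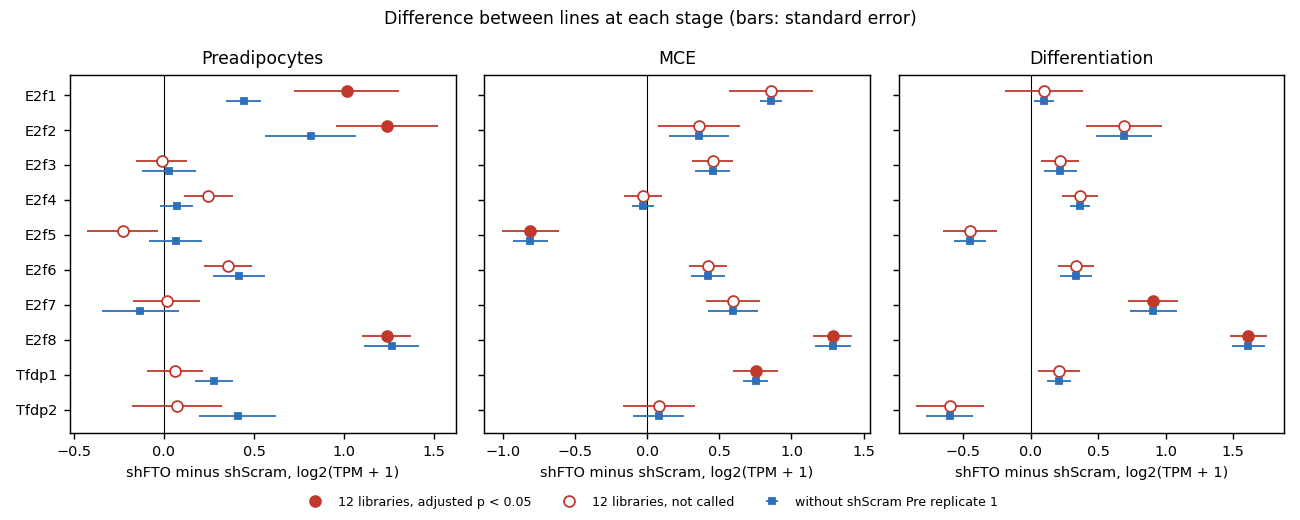
Difference between shFTO and shScram in log2(TPM + 1) (horizontal axis) for each gene in preadipocytes, at MCE and at differentiation, with standard errors. Red circles use 12 libraries and are filled where the adjusted p was under 0.05, and blue squares leave out replicate 1 of shScram_Pre. E2f8 lies between 1.24 and 1.61 at every stage, and E2f5 at MCE lies at -0.81.

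The balance of summed activator and repressor TPM stood out at MCE in the knockdown line. The activators E2f1, E2f2 and E2f3 made up 39.1% and 39.6% of the summed E2F TPM in shFTO_MCE. In the other 10 libraries their share was between 19.5% and 30.0%. It was 28.6% in both shScram_MCE libraries, 29.7% and 30.0% in shScram_Diff and 27.1% and 28.4% in shFTO_Diff. The ratio of activator to repressor TPM (E2f4, E2f5 and E2f6 summed) was 0.819 and 0.829 in shFTO_MCE against 0.443 and 0.445 in shScram_MCE, and it was 0.259 to 0.447 over the 10 libraries outside shFTO_MCE. These shares are descriptions with no test, and replicate 1 of shScram_Pre gave the lowest of them. The sums lean on E2f1 and E2f4. E2f1 made up 74.4% and 77.2% of activator TPM in shFTO_MCE, and E2f4 held 69.1 and 67.1 TPM there. With all 12 libraries neither gene was called between the lines at MCE. The repressor sum leaves out the atypical repressors E2f7 and E2f8, which together held 24.2 and 23.1 TPM in shFTO_MCE and 10.3 and 10.2 TPM in shScram_MCE. In shFTO both parts of the ratio differed between preadipocytes and MCE without overlap. From Pre to MCE in shFTO the summed activators went from 56.3 and 58.0 TPM to 71.7 and 72.3 TPM, and the summed repressors from 139 and 130 TPM to 87.6 and 87.2 TPM. In shScram the repressors went from 111 and 125 TPM to 93.7 and 96.0 TPM over the same step. The shScram activators went from 28.8 and 44.7 TPM to 41.7 and 42.5 TPM, so the stages overlapped.

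The atypical E2f7 and E2f8 together made up 13.2% and 12.6% of E2F TPM in shFTO_MCE and 7.09% and 6.89% in shScram_MCE. Their share was 2.93% and 2.21% in shScram_Diff, the lowest of the series, and 7.45% and 7.05% in shFTO_Diff. In preadipocytes it was 5.24% and 4.78% in shScram and 7.30% and 7.61% in shFTO. The lines did not overlap in this share at any stage. At differentiation, where the activator shares of the lines were close, the lines still differed in the atypical share.

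**Figure D3:**
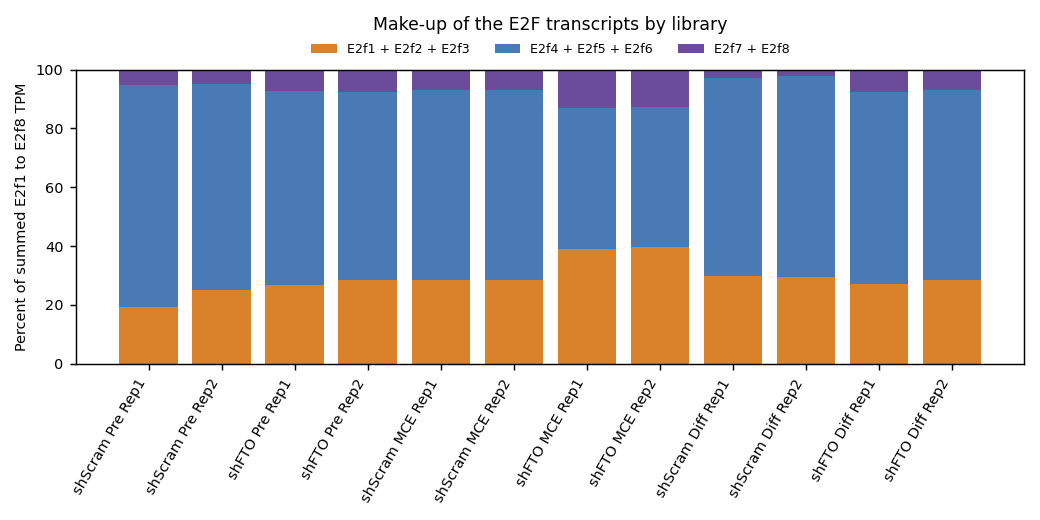
Percent of the summed TPM of E2f1 to E2f8 (vertical axis, stacked bars to 100) taken by the activators, by E2f4 to E2f6 and by E2f7 and E2f8 in each of the 12 libraries. The 2 shFTO MCE libraries have the largest activator shares, 39.1% and 39.6%.

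The stage comparisons ask how the E2F set moved as cells entered MCE and then differentiated. They share the MCE libraries within a line, and they share libraries with the knockdown comparisons. In shScram from Pre to MCE, E2f8 rose by 0.51 ± 0.14 while E2f3 fell by 0.51 ± 0.14 and E2f6 fell by 0.67 ± 0.13 (log2; limma adjusted p = 0.0182, 0.021 and 0.00487). This made 1 of 10 members higher and 2 lower, beside 12.2% and 26.9% of all genes. The E2f3 call was lost without replicate 2 of shScram_MCE (adjusted p = 0.144), and that of E2f8 without either shScram_MCE library (adjusted p = 0.0727 and 0.0804). All 3 calls were lost with library weights or with the compared libraries only (adjusted p = 0.189 to 0.414). In shFTO over the same step, E2f8 rose by 0.55 ± 0.14 and Tfdp1 rose by 0.56 ± 0.16, while E2f4 fell by 0.63 ± 0.13 and E2f6 fell by 0.60 ± 0.13 (adjusted p = 0.015, 0.0252, 0.00767 and 0.0095). These were 2 members higher and 2 lower, beside 8.8% and 19.9% of all genes. Leaving out 1 of the shFTO_Pre or shFTO_MCE libraries took the adjusted p of these calls to between 0.0565 and 0.163, for Tfdp1 with each of the 4 libraries. Those lost were E2f8 without replicate 2 of shFTO_Pre or either shFTO_MCE library, E2f4 without replicate 1 of shFTO_Pre or replicate 2 of shFTO_MCE, and E2f6 without replicate 2 of shFTO_Pre or either shFTO_MCE library. After GC correction the E2f4 value was -0.35 (adjusted p = 0.0774). E2f1 was higher at MCE than in preadipocytes by 0.65 ± 0.29 in shScram and 0.49 ± 0.29 in shFTO, neither of them called (adjusted p = 0.107 and 0.253). Without replicate 1 of shScram_Pre the shScram value was 0.08 (adjusted p = 0.528) and the shFTO value 0.49 (adjusted p = 0.000432). Without replicate 2 they were 1.22 (adjusted p = 2.03e-06) and 0.49 (adjusted p = 0.000469).

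From MCE to Diff both atypical E2Fs fell in both lines. E2f8 fell by 1.23 ± 0.14 in shScram and fell by 0.90 ± 0.14 in shFTO (log2; limma adjusted p = 0.000506 and 0.00181), and both calls held under 22 of 22 alternatives. E2f7 fell by 1.01 ± 0.19 in shScram and fell by 0.70 ± 0.19 in shFTO (adjusted p = 0.00538 and 0.0233). Leaving out replicate 2 of shScram_Diff gave an adjusted p of 0.0504 for the first, and leaving out any 1 of the 4 shFTO libraries of the step gave 0.0748 to 0.14 for the second, which had 0.0515 with no filter on low values. Tfdp1 fell by 0.72 ± 0.16 in shFTO (adjusted p = 0.00949; 0.0572 to 0.0825 without replicate 2 of shFTO_MCE or either shFTO_Diff library) and gave -0.17 ± 0.16 in shScram (adjusted p = 0.448). Thus 0 of 10 members were higher and 2 lower in shScram, beside 20.0% and 5.22% of all genes, and 0 were higher and 3 lower in shFTO, beside 20.2% and 6.48%. E2f1 gave -0.80 ± 0.29 in shFTO (adjusted p = 0.0741) and -0.04 ± 0.29 in shScram (adjusted p = 0.941), and without replicate 1 of shScram_Pre the shFTO value had an adjusted p of 2.32e-05 (2.53e-05 without replicate 2). Leaving out replicate 1 of shScram_Pre called 5 and 7 members in the step to MCE in shScram and shFTO, beside 48.1% and 51.1% of all genes, and 3 and 6 in the next step, beside 52.0% and 50.9%. Leaving out replicate 2 called 7 and 7, beside 64.7% and 51.1%, and then 3 and 6, beside 52.0% and 51.0%.

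The median of all genes was not at 0 in these steps, and scaling decides where it lies. It was -0.17 (shScram) and -0.18 (shFTO) for Pre to MCE, and 0.23 and 0.17 for MCE to Diff, and median-ratio scaling shifted it by 0.17, 0.19, -0.22 and -0.17. The share of calls that were higher was 31.1% and 30.6% for the first step in shScram and shFTO and 79.3% and 75.7% for the second. With median-ratio scaling these shares were 53.1%, 50.2%, 51.4% and 54.8%. Of the stage calls above, E2f3 in shScram (-0.30, limma adjusted p = 0.118) and E2f6 in shFTO (-0.38, adjusted p = 0.0713) were lost under median-ratio scaling and also with quantile normalization (adjusted p = 0.105 and 0.143). These scalings also called members that were not called above. In shFTO they were E2f7 in the step to MCE (0.76 and 0.79, adjusted p = 0.0092 with median-ratio and 0.00871 with quantile) and, in the step to differentiation, E2f1 (-1.01 and -0.88, adjusted p = 0.0191 and 0.0243) and E2f6 (-0.48 and -0.60, adjusted p = 0.03 and 0.0258). In shScram E2f1 was called in the step to MCE (0.87 and 0.74, adjusted p = 0.0276 and 0.0345). Median-ratio scaling also called E2f6 from MCE to Diff in shScram (-0.44, adjusted p = 0.0498), and quantile normalization called E2f2 in both shScram steps (0.74 and -0.96, adjusted p = 0.0387 and 0.0229). The step to MCE in shFTO thus had 3 members higher and 1 lower under either scaling. No called member changed sign under either.

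**Figure D4:**
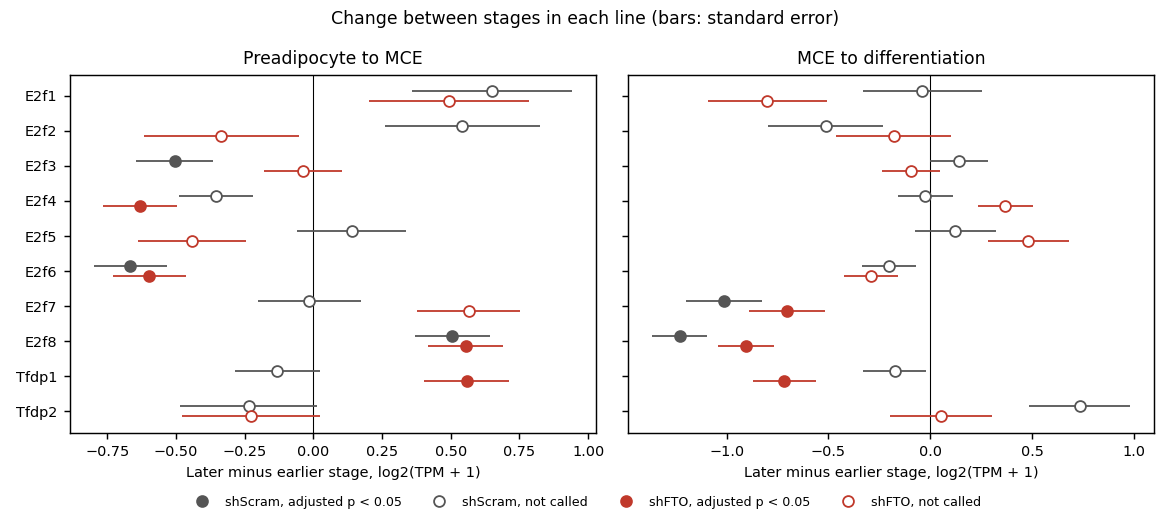
Change in log2(TPM + 1) from preadipocytes to MCE (left) and from MCE to differentiation (right) for each gene in shScram (grey) and shFTO (red), with standard errors and filled circles where the adjusted p was under 0.05. E2f7 and E2f8 lie below 0 in both lines in the right panel, between -1.23 and -0.70.

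Whether a step differed between the lines was tested as an interaction. By limma 0 of 10 members passed in the step to MCE, beside 2.52% of all genes higher and 2.59% lower, with 2 members (E2f3 and Tfdp1) at an unadjusted p under 0.05. In the step to differentiation 0 passed, beside 1.47% higher and 1.01% lower, with 1 member (Tfdp1) at an unadjusted p under 0.05. The Tfdp1 values were 0.69 ± 0.22 and -0.54 ± 0.22 (limma adjusted p = 0.115 and 0.276). Here too the shScram_Pre pair widened the errors. Without its replicate 1, the first comparison called E2f1 (0.42, adjusted p = 0.0498), E2f5 (-0.88, adjusted p = 0.0139) and Tfdp1 (0.47, adjusted p = 0.0451). The second called E2f1 (-0.76, adjusted p = 0.00155), E2f4 (0.39, adjusted p = 0.0297) and Tfdp1 (-0.54, adjusted p = 0.0148). These 3 and 3 members stood beside 14.1% and 17.1% of all genes, against 5.11% and 2.49% with all libraries. Without its replicate 2, 5 and 3 members were called, beside 52.5% and 17.1%. The E2f1 value in the step to MCE was then -0.73 (adjusted p = 0.000758), so its sign turned on which library was left out. For E2f8 the interactions were 0.05 ± 0.19 and 0.33 ± 0.19 (adjusted p = 0.882 and 0.493).

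The genes that E2Fs are known to control were followed by lists drawn up from their known roles. Of 32 E2F target genes of G1/S, such as the MCM helicase subunits and nucleotide-synthesis enzymes, 18 were higher and 0 lower in shFTO at MCE, with a median log2 difference of 0.65 beside 0.05 for all genes. Of all genes, 10.5% were higher and 7.26% lower in that comparison. In preadipocytes 5 were higher and 7 lower (median -0.10; 15.9% and 12.3% of all genes), but 0 and 0 without replicate 1 of shFTO_Pre, with library weights or with the compared libraries only, 1 and 2 without replicate 2 of shFTO_Pre, and 3 and 9 or 10 and 12 without replicate 1 or 2 of shScram_Pre. At differentiation 7 were higher and 1 lower (median 0.26; 11.9% and 9.31% of all genes). Of 15 target genes of G2/M, which E2Fs share with the MuvB complex, 2 were higher and 2 lower in shFTO at MCE (median -0.01). The former were Mybl2 and Aurkb and the latter Ccnb1 and Ccnb2, named after their values were seen. Mybl2 is itself a MuvB partner and an E2F target, so its place among the G2/M targets was a choice of the list. At differentiation 12 were higher and 0 lower (median 0.95), and in preadipocytes 3 were higher and 4 lower. The preadipocyte counts were 0 and 0 without either shFTO_Pre library, with library weights or with the compared libraries only, and 2 and 5 or 7 and 7 without replicate 1 or 2 of shScram_Pre. At MCE they were 1 and 0 or 1 and 1 on leaving out an MCE library, and 3 and 5 or 4 and 5 without replicate 1 or 2 of shScram_Pre. Over the alternatives the median at MCE was 0.52 to 0.71 for the G1/S list and -0.12 to 0.05 for the G2/M list, and at differentiation it was 0.20 to 0.36 and 0.89 to 1.09. The counts moved with single libraries. Without replicate 1 of shScram_Pre, and likewise without replicate 2, 24 G1/S targets were higher at MCE, and 15 G1/S and 15 G2/M targets at differentiation, in fits that called 41.0% of all genes at MCE and 45.6% to 45.7% at differentiation. Leaving out 1 of the 4 libraries of the stage gave 10 to 12 for G1/S at MCE and 2 to 4 for G1/S and 6 to 9 for G2/M at differentiation. None of the 32 G1/S targets was called lower at MCE in any of these fits.

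The difference between the lines in the step to MCE was called for 13 of 32 G1/S targets, all higher, and for 1 of 15 G2/M targets (Bub1, 1.01), beside 2.52% of all genes higher. The G1/S count was 2 with the compared libraries only or with library weights and 3 to 8 on leaving out 1 library outside shScram_Pre. It was 23 without replicate 1 of shScram_Pre, and without replicate 2 it was 22 higher and 3 lower. The G2/M call was lost on leaving out any library outside shScram_Pre, and without replicate 1 or 2 of shScram_Pre 3 were higher and 0 lower or 5 higher and 6 lower. In the step to differentiation the difference was called for 3 G1/S targets, all lower (Ccne2, Mcm7 and Pcna), beside 1.01% of all genes lower, and for 4 G2/M targets, all higher (Ccnb1, Ccnb2, Aurka and Top2a), beside 1.47% higher, with medians of -0.39 and 0.96. No G1/S target was called on leaving out any library outside shScram_Pre, with a pseudocount of 0.1, with median-ratio scaling or with the replicate block, and 12 were lower without either shScram_Pre library. The G2/M count was 3 on leaving out any library outside shScram_Pre and 13 without either library of that group.

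Within each line both lists fell from MCE to Diff, beside 5.22% of all genes lower in shScram and 6.48% in shFTO. In shScram 24 of 32 and 15 of 15 fell, and in shFTO 29 of 32 and 10 of 15. Over the alternatives these counts were 18 to 30 and 14 to 15 in shScram, and 22 to 32 and 9 to 15 in shFTO. From Pre to MCE, 7 of 32 and 11 of 15 rose in shScram, and 24 of 32 and 11 of 15 in shFTO, beside 12.2% and 8.8% of all genes. The 7 G1/S targets of shScram became 0 with the compared libraries only, 1 with library weights or without replicate 2 of shScram_MCE, and 3 or 4 on leaving out any other library outside shScram_Pre. They became 9 higher and 1 lower without replicate 1 of shScram_Pre, 14 higher and 3 lower without replicate 2, and 17 with GC correction. The shFTO count ran from 17 to 31. For the G2/M list the count ran from 1, with the compared libraries only, to 14 in shScram and from 8 to 15 in shFTO. The genes named for the differences between the lines were chosen after their values were seen.

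**Figure D5:**
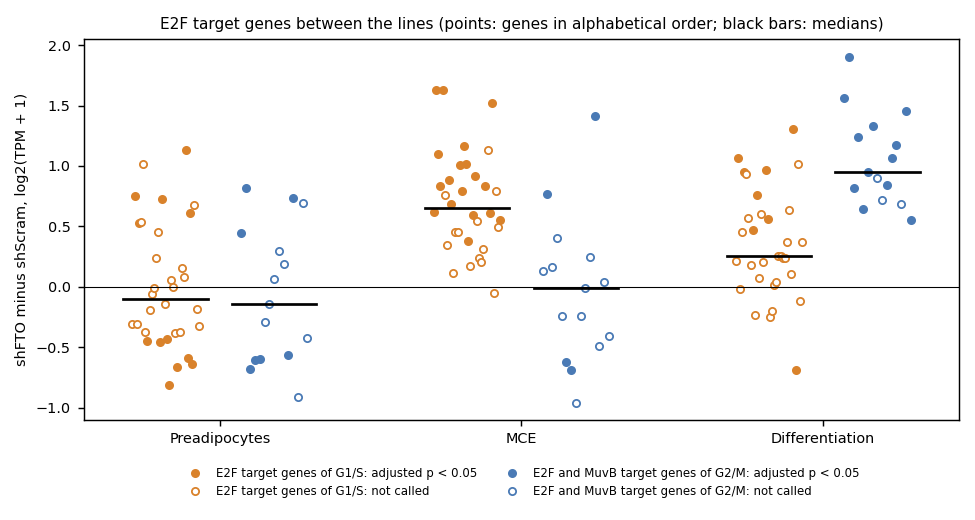
Difference between shFTO and shScram in log2(TPM + 1) (vertical axis) for 32 G1/S targets (orange) and 15 G2/M targets (blue) at the 3 stages, filled where the adjusted p was under 0.05, with medians as black bars. The G1/S median is highest at MCE (0.65) and the G2/M median at differentiation (0.95).

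The single targets given next had the highest or lowest called values of their list at differentiation, so they are its extremes at that stage. The list medians there were 0.26 for G1/S and 0.95 for G2/M, and at MCE 0.65 and -0.01. Rrm2, a subunit of ribonucleotide reductase, held 56.4 and 57.4 TPM in shScram_MCE, against 169 and 161 TPM in shFTO_MCE, and 16.9 and 12.7 TPM in shScram_Diff, against 35.9 and 39.5 TPM in shFTO_Diff. The lines did not overlap at either stage. Rrm2 was higher in shFTO by 1.52 ± 0.17 and 1.31 ± 0.17 (limma adjusted p = 0.000454 and 0.000856). Ccne1, the cyclin of the G1/S transition, held 14.6 and 18.3 TPM in shScram_MCE, against 51.9 and 53.1 TPM in shFTO_MCE, a difference of 1.63 ± 0.15 (adjusted p = 0.000133), and was also higher by 1.07 ± 0.15 at differentiation (adjusted p = 0.00112). Slbp, which binds histone mRNA, was the 1 G1/S target lower at differentiation, with 52.3 and 49.1 TPM in shScram, against 29.7 and 32.6 TPM in shFTO (-0.68 ± 0.14, adjusted p = 0.00997). Among G2/M targets, the mitotic kinase Aurka held 59.6 and 61.6 TPM in shScram_MCE, against 66.5 and 66.4 TPM in shFTO_MCE, but 10.8 and 10.5 TPM in shScram_Diff, against 33.4 and 33.5 TPM in shFTO_Diff. Its difference was 0.13 ± 0.11 (adjusted p = 0.479) at MCE and 1.56 ± 0.11 (adjusted p = 2.48e-05) at differentiation. The kinase Aurkb held 8.52 and 7.10 TPM in shScram_Diff, against 28.8 and 35.2 TPM in shFTO_Diff (1.90 ± 0.19, adjusted p = 0.000208).

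The regulators upstream of the E2Fs were mixed. Of all genes 15.9% were higher and 12.3% lower in shFTO preadipocytes, 10.5% and 7.26% at MCE and 11.9% and 9.31% at differentiation, and in lists of 3 to 8 genes counts of 1 or 2 lie near these shares and are no result about a list. Of the 3 pocket proteins, only Rbl1, itself an E2F target, was called at MCE (named after its value was seen). It held 11.9 and 11.2 TPM in shScram_MCE, against 22.9 and 20.0 TPM in shFTO_MCE (0.83 ± 0.16, limma adjusted p = 0.00719). The Rbl1 call was lost under at least 1 alternative. By limma 0 of 3 were called in preadipocytes and 0 at differentiation, with 0 and 1 at an unadjusted p under 0.05. Rb1 held 6.36 to 13.6 TPM and Rbl2 16.3 to 33.2 TPM over the 12 libraries. Of 8 G1 cyclins and kinases that phosphorylate pocket proteins, 3 were higher at MCE (Ccne1, Ccne2 and Cdk2) and 1 lower (Ccnd1), and at differentiation 1 was higher (Ccne1) and 2 lower (Ccnd1 and Ccnd2). In preadipocytes 2 were higher (Ccnd3 and Ccne1) and 2 lower (Ccnd1 and Ccnd2). Ccnd1, the cyclin that couples growth signals to CDK4 and CDK6, held 185 and 168 TPM in shScram_MCE, against 61.2 and 58.0 TPM in shFTO_MCE. It held 197 and 187 TPM in shScram_Diff, against 79.1 and 82.7 TPM in shFTO_Diff. Ccnd1 was lower in shFTO at the successive stages (-0.74 ± 0.16, -1.55 ± 0.16 and -1.24 ± 0.16; adjusted p = 0.0121, 0.000271 and 0.000767). Each call of this list in preadipocytes, that of Ccnd1 included, was lost under at least 1 alternative. Ccnd2 at differentiation fell by 0.47 ± 0.11 (adjusted p = 0.0151). Over the alternatives the counts of this list were 2 to 5 higher and 1 to 2 lower at MCE. At differentiation they were 1 to 3 higher and 1 to 3 lower, so calls at these stages were lost under some alternatives too. Several of these members were named after their values were seen.

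Of 6 CDK inhibitors tested, 3 were higher in shFTO preadipocytes (Cdkn1a, Cdkn2c and Cdkn2d), 0 were called at MCE by limma, with 0 at an unadjusted p under 0.05, and 1 was higher at differentiation (Cdkn2d). Cdkn2d held 17.2 and 15.9 TPM in shScram_Diff, against 45.1 and 48.9 TPM in shFTO_Diff (1.45 ± 0.40, limma adjusted p = 0.0324). Each of the inhibitor calls in preadipocytes and at differentiation was lost under at least 1 of the 22 alternatives. The median inhibitor difference in preadipocytes was 0.80, and 0.19 without replicate 1 of shScram_Pre. The inhibitor counts without replicate 1 of shScram_Pre were 3 higher and 1 lower, 2 higher and 2 lower, and 4 higher and 0 lower, in fits that called 29.0%, 41.0% and 45.7% of all genes. Of 7 genes listed for DREAM and MuvB, 2 were higher in preadipocytes (Lin37 and Mybl2) and 0 were lower. At MCE 1 was higher (Mybl2) and at differentiation 2 (Mybl2 and Foxm1), and 0 were lower. Mybl2 and Foxm1 join MuvB to activate mitotic genes and are not partners of E2f4 in repression. At MCE 5 were higher without replicate 1 of shScram_Pre, in a fit that called 41.0% of all genes. Mybl2, which is both a MuvB partner and an E2F target, held 6.85 and 9.04 TPM in shScram_MCE, against 22.6 and 22.7 TPM in shFTO_MCE (1.41 ± 0.23, adjusted p = 0.00312). Foxm1 held 11.3 and 11.9 TPM in shScram_Diff, against 21.1 and 22.2 TPM in shFTO_Diff (0.85 ± 0.20, adjusted p = 0.0154). In the DREAM and MuvB list every call in preadipocytes and at differentiation was lost under at least 1 alternative.

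Of 7 partners of E2f6 in the PRC1.6 complex, 1 was higher (Max) at MCE and at differentiation and 0 were lower. Of all genes 10.5% and 11.9% were higher and 7.26% and 9.31% lower at these stages. In preadipocytes 1 partner was higher (Ring1) and 2 lower (Pcgf6 and Cbx3), beside 15.9% and 12.3% of all genes. Such counts are no result about the partners. Max, which binds DNA together with Mga in that complex, held 47.3 and 51.2 TPM in shScram_Diff, against 74.5 and 75.1 TPM in shFTO_Diff (0.59 ± 0.12, limma adjusted p = 0.00728). Each call of this list, at every stage, was lost under at least 1 alternative. Of 6 genes listed for the control of E2F protein degradation, 2 were higher at MCE (Skp2 and Fbxo5) and 2 at differentiation (Skp2 and Ccnf). By limma 0 were called in preadipocytes, where 1 was at an unadjusted p under 0.05, and 0 were lower at any stage. Fbxo5 inhibits the APC/C ubiquitin ligase and so acts against degradation. The ubiquitin ligase subunit Ccnf held 9.23 and 6.84 TPM in shScram_Diff, against 15.9 and 17.4 TPM in shFTO_Diff (0.98 ± 0.18, adjusted p = 0.00554). Skp2 held 11.99 and 13.98 TPM in shScram_Diff, against 20.5 and 24.5 TPM in shFTO_Diff (0.75 ± 0.17, adjusted p = 0.016). The calls of the degradation list at MCE and at differentiation were also each lost under at least 1 alternative.

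The promoters of the members show which of them carry the E2F binding motif near a start site. Windows of 300 bases, from 250 before to 50 after a RefSeq start site on GRCm38.p6, were found for 8 of the 10 members (12 windows), and E2f4 and E2f5 had no entry. The motif was searched on both strands as TTTCCCGC, TTTCGCGC, TTTGCCGC or TTTGGCGC. It was present for 4 members (E2f2, E2f3, E2f7 and Tfdp1), beside 4.61% of 10432 tested genes and 2.26% of all 32851 windows. Of 26 G1/S targets with a window, 14 held it. The windows of E2f1, E2f7, E2f8 and Tfdp1 are shown because these genes had their highest shFTO mean at MCE, with the motif in capitals. They lie at chr2:154569377-154569676 (minus strand), chr10:110745189-110745488 (plus strand), chr7:48881547-48881846 (minus strand) and chr8:13338501-13338800 (plus strand).
E2f1: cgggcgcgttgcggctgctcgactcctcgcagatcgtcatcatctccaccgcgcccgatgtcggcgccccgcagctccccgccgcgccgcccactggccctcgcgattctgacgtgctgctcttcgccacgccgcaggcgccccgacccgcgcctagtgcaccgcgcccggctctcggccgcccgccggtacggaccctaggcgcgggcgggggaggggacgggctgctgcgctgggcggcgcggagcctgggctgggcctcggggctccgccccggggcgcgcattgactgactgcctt
E2f7: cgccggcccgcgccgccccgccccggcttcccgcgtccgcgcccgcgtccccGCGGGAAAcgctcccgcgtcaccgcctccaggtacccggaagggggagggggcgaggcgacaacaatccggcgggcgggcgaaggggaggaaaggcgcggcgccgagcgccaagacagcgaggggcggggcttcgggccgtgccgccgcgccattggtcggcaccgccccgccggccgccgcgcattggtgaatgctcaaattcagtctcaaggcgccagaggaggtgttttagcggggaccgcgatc
E2f8: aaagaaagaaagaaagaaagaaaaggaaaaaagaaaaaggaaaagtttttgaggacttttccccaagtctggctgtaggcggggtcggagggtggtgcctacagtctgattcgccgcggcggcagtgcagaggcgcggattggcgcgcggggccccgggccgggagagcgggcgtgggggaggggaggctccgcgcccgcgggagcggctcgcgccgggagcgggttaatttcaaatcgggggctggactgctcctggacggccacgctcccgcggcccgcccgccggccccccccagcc
Tfdp1: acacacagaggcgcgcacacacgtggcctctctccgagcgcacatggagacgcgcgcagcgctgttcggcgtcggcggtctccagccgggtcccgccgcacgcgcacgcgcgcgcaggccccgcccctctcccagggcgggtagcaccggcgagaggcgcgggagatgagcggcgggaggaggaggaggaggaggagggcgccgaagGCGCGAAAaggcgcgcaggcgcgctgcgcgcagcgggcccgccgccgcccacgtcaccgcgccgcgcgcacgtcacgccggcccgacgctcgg
The motif of E2f7 starts 198 bases before the start site and that of Tfdp1 43 bases before it, both on the opposite strand. The E2f1 and E2f8 windows hold none of these 4 forms, which says only that these letters are not in these windows. The E2f1 window is set on a site 466 bases inside the annotated gene start, and the Tfdp2 windows start from sites 62430 and 62973 bases inside the gene, so these windows need not be the promoters used.

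Genes with a pattern most like that of E2f1, E2f4 and E2f8 over the 12 libraries were found by Pearson r of log2(TPM + 1) among 10798 genes with a mean TPM of 5 or more. The points share libraries and the differences between them in depth and base composition. For E2f1 they were Clptm1 (r = 0.984), Tssc4 (0.981) and Tedc2 (0.974), and without replicate 1 of shScram_Pre these r were 0.959, 0.951 and 0.933. For E2f4 they were Bst2 (0.965), Pycr1 (0.965) and Itga3 (0.962), and for E2f8 Trim27 (0.968), Sar1b (0.965) and Ccn5 (0.963).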

How the data were processed

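RNA-seq of fragmented total RNA from 12 libraries of 3T3-L1 cells was used. Per the labels and methods, the authors used Trim Galore 0.6.5 for trimming, HISAT2 2.1.0 for alignment (GRCm38) and StringTie 2.1.4 with Ensembl release 102 for the deposited TPM. Their DESeq2 test needs counts, which were not used here. The 15968 of 55487 genes that reached 1 TPM in 2 or more libraries entered a limma 3.58.1 fit (R 4.3.3) of log2(TPM + 1), with a mean per group over all 12 libraries, 6 residual degrees of freedom, eBayes with a trend and two-sided Benjamini-Hochberg adjustment. The fit was also run on simulated data with independent noise of equal spread in all libraries. That setting lacks a deviating library such as replicate 1 of shScram_Pre, so it cannot show how the fit deals with one. Groups came from the titles.

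All members were described. From each pathway list at most the 2 highest and 2 lowest called genes in the knockdown comparison at differentiation were to be named, and others are said to be named after their values were seen. The members and lists were chosen with earlier results of these data known. Lists share some genes, such as Ccne1, Mybl2 and Foxm1. The alternatives changed the pseudocount, filter, scaling, trend, library weights, libraries in the fit, the replicate block and single libraries, and a GC correction was added after seeing the data. Promoters were from RefSeq.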

Additional observations from a re-analysis of the deposited data

Results flagged for a closer look

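E2f2 moved in opposite directions between the lines from Pre to MCE. In shScram it went from 0.232 and 1.21 TPM to 1.58 and 1.24 TPM, so both MCE libraries were higher, and in shFTO it went from 3.15 and 2.65 TPM to 2.55 and 1.68 TPM, so both were lower. The difference between the steps was -0.88 ± 0.40 (log2) and did not pass the test (limma adjusted p = 0.232). It was -0.46 (adjusted p = 0.399) without replicate 1 of shScram_Pre, -0.37 (adjusted p = 0.43) with GC correction and -1.30 (adjusted p = 0.0075) without replicate 2 of shScram_Pre.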

How the results depend on the processing

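The table holds TPM and 2 libraries per group, so neither counting error nor depth can be given. Of 90 member values, 26 changed sign under at least 1 of 22 alternatives, none of them among the 20 called. Among the 44 called with all libraries or without replicate 1 of shScram_Pre, 2 changed sign. E2f1 in the difference between lines in the step to MCE was -0.16 with all libraries, 0.42 without replicate 1 and -0.73 without replicate 2 of shScram_Pre, and 0.45 with GC correction. E2f5 from Pre to MCE in shScram was 0.14, and it was 0.43 without replicate 1 and -0.16 without replicate 2 of shScram_Pre. In each case the cause was not tested.

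Counts of members called are given below for the knockdown comparison in preadipocytes, at MCE and at differentiation, the 2 steps in shScram, the 2 steps in shFTO, and the 2 differences between lines, in that order. They were 3, 3, 2, 3, 2, 4, 3, 0 and 0 with all libraries, beside 2.49% to 39.1% of all genes. With 1 library left out they ranged from 1 to 5, 1 to 7, 1 to 7, 1 to 7, 1 to 3, 0 to 7, 1 to 6, 0 to 5 and 0 to 3, beside 0.783% to 64.7% of all genes. They were 0, 6, 6, 0, 3, 7, 6, 0 and 3 with the compared libraries only (0% to 54.4% of all genes), 0, 7, 7, 0, 3, 7, 7, 0 and 3 with library weights (1.45% to 58.1%), and 2, 7, 3, 6, 5, 5, 5, 0 and 1 with GC correction (7.81% to 44.0%). A mean TPM of 5 or more gave 5, 1 and 1 for the comparisons at MCE, at differentiation and from MCE to Diff in shScram, over 8 members, since E2f2 and E2f7 were not in that fit. Without a trend 5 members were called at MCE, and quantile or median-ratio scaling called 5 from MCE to Diff in shFTO. The pseudocount and the absence of a filter moved no count by over 1.5 times.

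Replicate numbers showed no clear pairing of the libraries: the correlation of deviations between groups ran from -0.29 to 0.17, with 2 of 15 pairs of groups over 0.1. In several groups the deviations also followed GC content, so these correlations cannot exclude pairing. With the replicate block the counts were 3, 3, 2, 3, 3, 4, 3, 0 and 0, the added call being Tfdp2 from MCE to Diff in shScram (0.73, limma adjusted p = 0.0345).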

Other observations

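Over the 12 libraries the members' levels were related in a few ways that the comparisons do not show, given here as descriptions across libraries that share groups. E2f5 ran against most of the set, with a Pearson r of log2(TPM + 1) of -0.82 with E2f8, -0.77 with E2f7 and -0.76 with E2f1. E2f7 and E2f8 ran together (0.84), as did E2f8 and E2f2 (0.80). E2f1 and Tfdp1 had an r of 0.44 over all libraries and 0.95 without replicate 1 of shScram_Pre. E2f4 was close to none of the activators, with an r of -0.04 with E2f1, 0.44 with E2f2 and 0.49 with E2f3.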
